A study of Sus scrofa with 6 samples.

Results

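The genes described here encode proteins of the Z-disc and of its titin-linked sensors in skeletal muscle: ACTN2, ACTN3, MYOZ1, MYOZ2, LDB3, TCAP, MYOT, CSRP3, ANKRD1 and ANKRD2. They were chosen by gene symbol in the deposited expression table, and 9 of the 10 symbols were found among 25878 listed genes, the exception being LDB3. The table comes from the longissimus dorsi (LD), the long muscle of the back, of 6 Nanyang Black pigs, a Chinese indigenous breed with marked fat deposition. RNA was sequenced in 1 library per pig, and the question put to the data was which genes differ with lipid deposition.

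The high-fat deposition group (HF) held 3 pigs, HF01 to HF03, and the low-fat deposition group (LF) held 3 pigs, LF01 to LF03. All 6 pigs carried the same label for breed, tissue and age (180 days), and none carries a label for a treatment or an engineered allele. The phenotype data of the study give another age than the labels, the same in both groups. The study placed the pigs in the groups by backfat thickness, intramuscular fat, fat area in tissue sections and total fatty acids. HF and LF are thus relatively fatter and leaner pigs of a single farm and not an intervention. By the study's tests, intramuscular fat and fat area differed significantly between the groups, while backfat thickness and total fatty acids did not. The methods speak of related female pigs of a pen, and kinship between the sequenced pigs is not in the labels.

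The Z-disc is the border between neighboring sarcomeres, where the thin filaments of both sides are cross-linked by α-actinin and where titin, the giant elastic protein, is anchored. Telethonin caps the end of titin, and myozenins, myotilin and the LIM-domain protein LDB3 bind α-actinin and filamin to hold the lattice together. CSRP3, ANKRD1 and ANKRD2 sit at the Z-disc or on the neighboring elastic part of titin, and all of them can also enter the nucleus and are known to respond to stretch. Several of the genes come in fast and slow forms: ACTN3 and MYOZ1 are typical of fast fibers, whereas MYOZ2, CSRP3 and ANKRD2 are typical of slow fibers.

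Expression is given in FPKM, fragments scaled to transcript length and to the mapped fragments of the library, as computed by the authors, and levels can therefore be set side by side between genes. HF and LF were compared with limma on log2(FPKM + 0.1) for those 11136 genes that averaged 0.5 FPKM or more across the pigs, a filter that all 9 genes passed. Genes with a Benjamini-Hochberg adjusted p under 0.05 count as called. Fold changes are HF minus LF on that log2 scale. Single genes were also compared by an exact two-sided permutation test over the 10 splits of 3 and 3 pigs, which cannot go below p = 0.1.

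Across all genes tested, 8 were called (0.0718%). None of the 9 Z-disc genes was called by limma, and none had an unadjusted p under 0.05, against 24.8% of all genes. Their log2 fold changes were positive for 3 and negative for 6 genes with a median of -0.17, and over all genes tested the median was -0.03. With quantile normalization, the split turned to 6 positive and 3 negative, with a median of 0.13. HF and LF values did not overlap for 1 of the 9 genes, MYOZ1, against 29.9% of all genes (17.1% lower in HF). The summed level of the 9 genes was 7265, 5739 and 6887 FPKM in HF01 to HF03 and 7818, 8078 and 8341 FPKM in LF01 to LF03, so that each HF pig lay below each LF pig. MYOZ1 was the largest contributor in every pig, and the groups overlapped in each of the other genes. The sum therefore does not show a shift shared by the 9 genes. The tissue is bulk muscle, in which fewer fibers of a type and less RNA per fiber cannot be told apart.

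**Figure D1:**
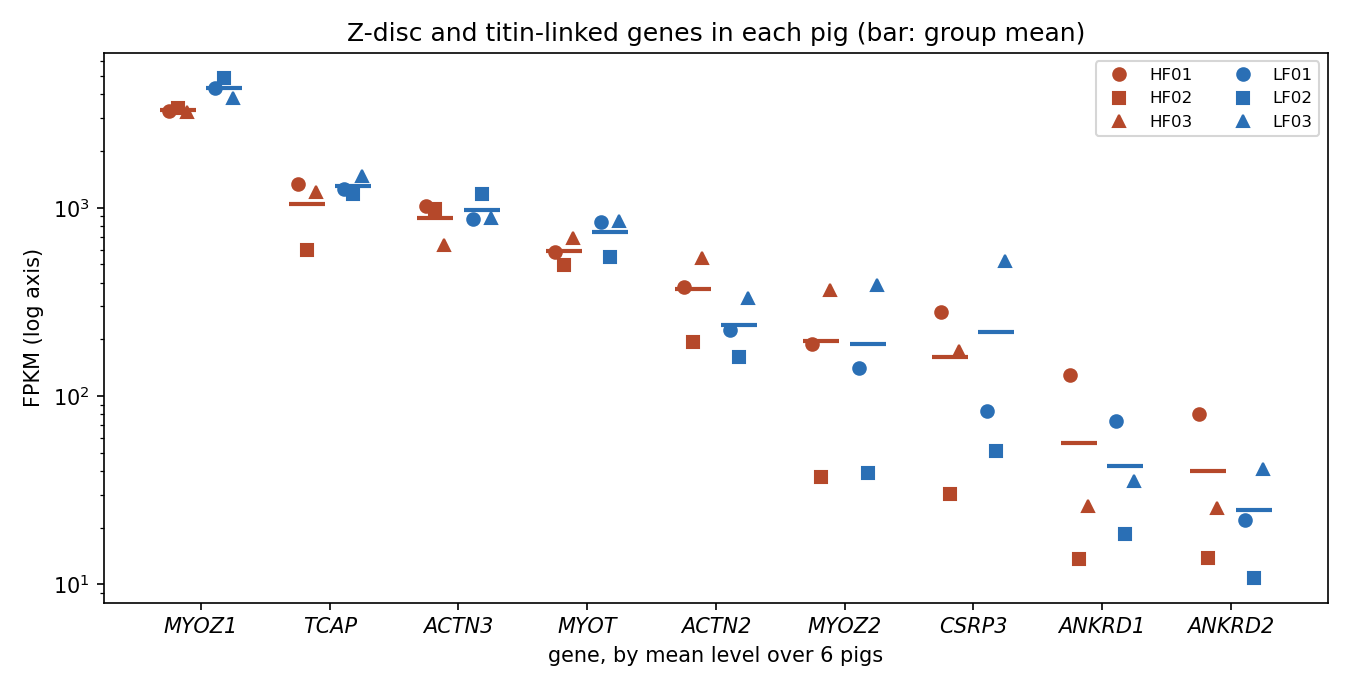
Level of each of the 9 Z-disc and titin-linked genes in each pig (FPKM, log axis), with HF pigs left of LF pigs; a symbol is 1 pig and a bar is the mean of its group. MYOZ1 is the only gene in which the HF pigs (3221 to 3382 FPKM) lie apart from the LF pigs (3829 to 4888 FPKM), and MYOZ2, CSRP3, ANKRD1 and ANKRD2 spread widely inside both groups.

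The genes spanned a wide range of levels. Ordered by the mean over 6 pigs, they were MYOZ1 (3814 FPKM), TCAP (1175), ACTN3 (929), MYOT (667), ACTN2 (305), MYOZ2 (193), CSRP3 (190.2), ANKRD1 (49.4) and ANKRD2 (32.3). MYOZ1 exceeded TCAP, MYOT exceeded ACTN2, and CSRP3 exceeded ANKRD1 in 6 of 6 pigs. TCAP exceeded ACTN3, ACTN3 exceeded MYOT, and ACTN2 exceeded MYOZ2 in 5 of 6 pigs. MYOZ2 and CSRP3 did not separate, since MYOZ2 was the higher in 3 of 6 pigs, and ANKRD1 exceeded ANKRD2 in 4 of 6. MYOZ1 stood above 99.8% of the genes tested, and even ANKRD2, the lowest of the 9, stood above 88.0%.

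The α-actinins cross-link actin filaments, ACTN2 in all fibers and the heart and ACTN3 in fast fibers. ACTN2 (chromosome 14, 54666742 to 54742779, Sscrofa11.1) had 381, 193 and 539 FPKM in HF01 to HF03, against 226, 162 and 329.8 FPKM in LF01 to LF03. The number 02 pig was the lowest of its group in both groups, HF01 and HF03 lay above every LF pig, and the groups overlapped through HF02. The means were 371 ± 173 FPKM in HF and 239 ± 84.8 FPKM in LF (SD, n = 3 each). The log2 fold change was 0.57 (SE 0.41, 95% interval -0.36 to 1.504, limma adjusted p = 0.414, exact permutation p = 0.4).

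ACTN3 (chromosome 2, 5860396 to 5874375, overlapping CTSF) had 1025, 981 and 636 FPKM in HF01 to HF03, against 869, 1177 and 883 FPKM in LF01 to LF03. Its lowest value was in HF03 and its highest in LF02, the pigs that held the highest and the lowest ACTN2, and the groups overlapped. In limma, the difference on the log2 scale was -0.17 (SE 0.26, 95% interval -0.76 to 0.43, limma adjusted p = 0.726, exact permutation p = 0.6), and it was 0.13 with quantile normalization. Whether reads were assigned by strand is not given in the sources used here. Reads from any stretch shared by ACTN3 and CTSF, or by the other overlapping pairs named with the genes, therefore may not be told apart. The overlaps are of whole gene spans, and exons were not compared. Within a pig, ACTN3 was 2.69, 5.09 and 1.18 times ACTN2 in HF01 to HF03 and 3.85, 7.27 and 2.68 times ACTN2 in LF01 to LF03. ACTN3 was thus the more abundant α-actinin in every pig, and the ratio was highest in the number 02 pig of each group.

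Myozenins, also called calsarcins, bind α-actinin and hold the phosphatase calcineurin at the Z-disc. MYOZ1 (chromosome 14, 76442582 to 76452808) had 3264, 3382 and 3221 FPKM in HF01 to HF03, against 4301, 4888 and 3829 FPKM in LF01 to LF03. The HF pigs lay within a narrow band, and every HF value was below every LF value. MYOZ1 averaged 3289 ± 83.3 FPKM in HF and 4339 ± 531 FPKM in LF (SD, n = 3 each). On the log2 scale the difference was -0.39 (SE 0.21, 95% interval -0.86 to 0.08), with an unadjusted limma p of 0.0905, a limma adjusted p of 0.271 and an exact permutation p of 0.1, the smallest this design allows. The MYOZ1 difference therefore did not pass the test, and its sign stayed negative under each alternative run (log2 fold change -0.48 to -0.30, adjusted p 0.243 to 0.538).

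MYOZ2 (chromosome 8, 104577788 to 104609364), the myozenin of slow fibers and the heart, varied widely between pigs. It had 188, 37.4 and 366 FPKM in HF01 to HF03, against 140, 39.1 and 388 FPKM in LF01 to LF03. HF and LF covered the same range, and in both groups pig 02 was lowest and pig 03 highest. The log2 fold change of 0.09 had a 95% interval of -2.11 to 2.30 (limma adjusted p = 0.965, exact permutation p = 1), so that large differences in either direction were within the error. MYOZ1 was 17.3, 90.5 and 8.81 times MYOZ2 in HF01 to HF03 and 30.7, 125 and 9.86 times MYOZ2 in LF01 to LF03. The myozenin ratio overlapped between the groups and varied more between pigs of a group than between groups.

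TCAP (chromosome 12, 22651243 to 22653005) encodes telethonin, the titin cap. It had 1336, 594 and 1209 FPKM in HF01 to HF03, against 1264, 1179.9 and 1467 FPKM in LF01 to LF03. HF02 was lower than the other pigs, all of which lay within 1179.9 to 1467 FPKM. The log2 fold change was -0.40 (SE 0.32, 95% interval -1.13 to 0.34, limma adjusted p = 0.476, exact permutation p = 0.5). Without HF02, the log2 fold change of TCAP was -0.031, so that most of its size rested on that pig.

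MYOT (chromosome 2, 139861011 to 139920662, overlapping KLHL3 and PKD2L2) encodes myotilin, which binds α-actinin and bundles actin. It had 580.0, 494 and 690.3 FPKM in HF01 to HF03, against 839, 551 and 846 FPKM in LF01 to LF03. Pig 02 was again the lowest of each group, and LF01 and LF03 lay above every HF pig. In limma, the difference on the log2 scale was -0.33 (SE 0.25, 95% interval -0.90 to 0.25, limma adjusted p = 0.449, exact permutation p = 0.3). With quantile normalization it was 0.066.

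LDB3 (also known as ZASP or Cypher) links α-actinin to signaling kinases and keeps the Z-disc intact under load. No row carries its symbol, and it is not counted among the 9 genes. The reference annotation of the same assembly places LDB3 on chromosome 14, 87660961 to 87722249, and 2 listed models without a symbol overlap that span. Strand was not compared, and these models were looked up after values of the other genes had been seen. The larger model, ENSSSCG00000010359 (87659260 to 87690261), had 1124, 697 and 798 FPKM in HF01 to HF03, against 675, 815 and 467 FPKM in LF01 to LF03. Its groups overlapped, with a log2 fold change of 0.43 (95% interval -0.22 to 1.08, limma adjusted p = 0.381).

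The shorter model in that span, ENSSSCG00000036976 (87703267 to 87719629), had 170, 126 and 152 FPKM in HF01 to HF03, against 62.5, 97.8 and 51.2 FPKM in LF01 to LF03. Each HF pig lay above each LF pig. HF minus LF, the log2 difference was 1.12 (SE 0.27, 95% interval 0.50 to 1.75), and with a limma adjusted p of 0.0899 it was not called (exact permutation p = 0.1, the smallest possible). Without LF02 the adjusted p was 0.0470, and over the alternatives it ran from 0.0470 to 0.260. Both models overlap the LDB3 span, the larger one starting before it, and a difference between them was not tested.

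CSRP3, ANKRD1 and ANKRD2 form the stretch-responsive part of the family. CSRP3 (chromosome 2, 40227862 to 40240376), the muscle LIM protein that binds telethonin and α-actinin, had 280.1, 30.3 and 174 FPKM in HF01 to HF03, against 83.5, 51.0 and 522 FPKM in LF01 to LF03. The highest CSRP3 value, in LF03, was 17.2 times the lowest, in HF02, and the HF range lay inside that of LF but for HF02. The log2 fold change of -0.19 had a 95% interval of -2.47 to 2.08 (limma adjusted p = 0.926, exact permutation p = 1).

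ANKRD1 (chromosome 14, 102591056 to 102613145, overlapping RPP30), the cardiac ankyrin repeat protein that binds the elastic part of titin, had 129, 13.6 and 26.1 FPKM in HF01 to HF03, against 73.9, 18.5 and 35.6 FPKM in LF01 to LF03. Here pig 01 was the highest in each group and pig 02 the lowest. HF minus LF, the log2 difference was -0.03 (95% interval -1.85 to 1.79, limma adjusted p = 0.987, exact permutation p = 1), and it was 0.19 with quantile normalization.

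ANKRD2 (chromosome 14, 108944790 to 108959382, overlapping UBTD1 and HOGA1), its counterpart in skeletal muscle, had 80.7, 13.8 and 25.4 FPKM in HF01 to HF03, against 22.0, 10.9 and 41.3 FPKM in LF01 to LF03. HF01 was the highest, and the other pigs of both groups ran from 10.9 to 41.3 FPKM. The log2 fold change was 0.51 (95% interval -1.01 to 2.03, limma adjusted p = 0.670, exact permutation p = 0.6), and it was -0.19 without HF01. ANKRD2 was 0.625, 1.02 and 0.975 times ANKRD1 in HF01 to HF03 and 0.298, 0.588 and 1.16 times ANKRD1 in LF01 to LF03, overlapping between the groups.

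**Figure D2:**
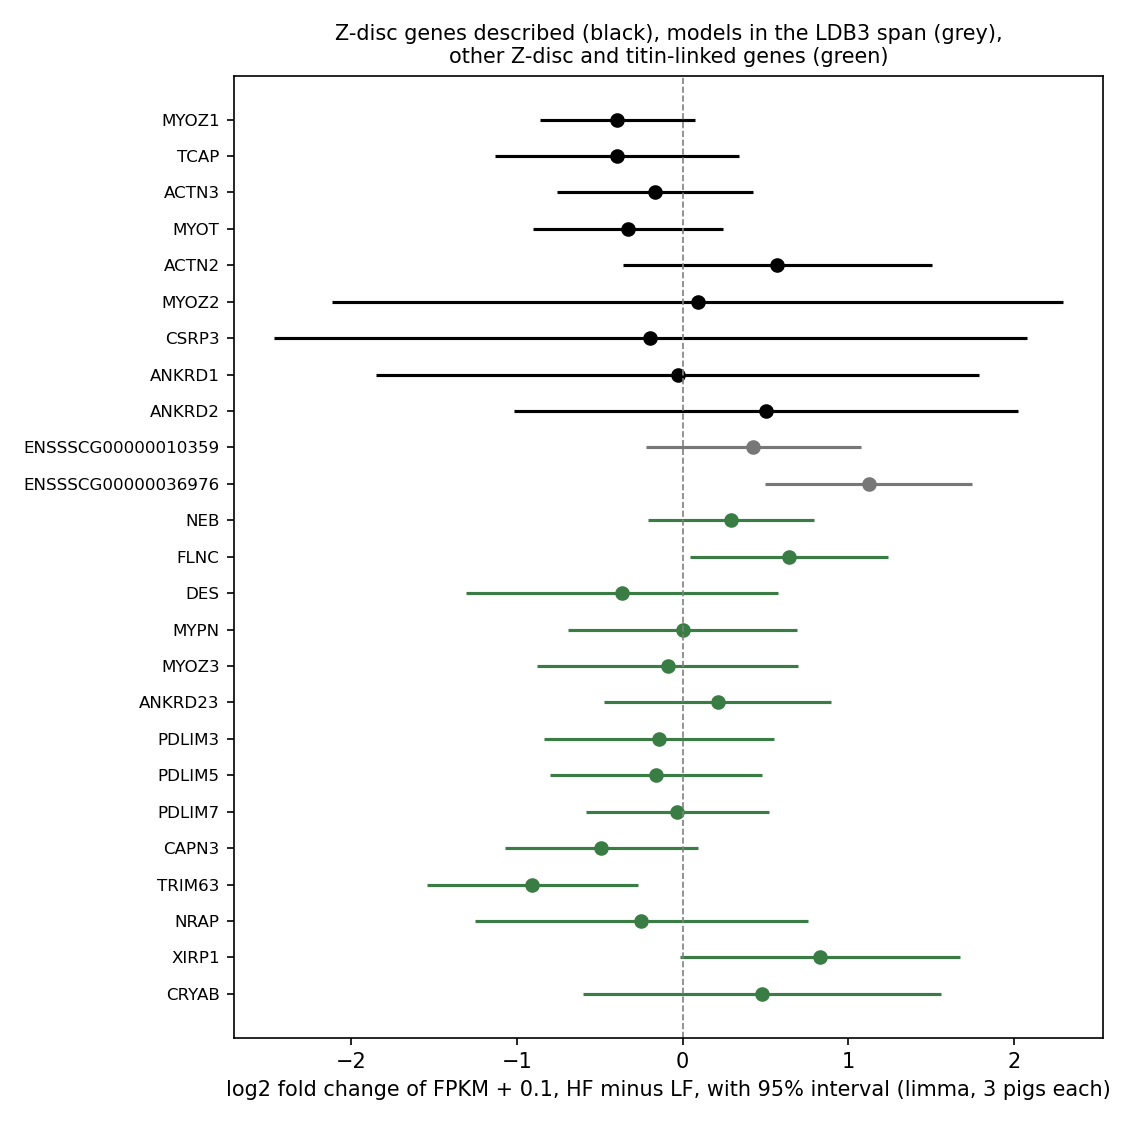
Log2 fold change, HF minus LF, on the log2(FPKM + 0.1) scale, with 95% intervals from limma. Shown are the 9 Z-disc genes (black), the 2 models overlapping the LDB3 span (grey) and named further Z-disc genes (green). The intervals of all 9 genes include 0, and those of MYOZ2 (-2.11 to 2.30) and CSRP3 (-2.47 to 2.08) are the widest of the 9.

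Variation between pigs of the same group split the 9 genes. The standard deviation (SD) of log2(FPKM + 0.1) within groups was 1.73 for CSRP3, 1.67 for MYOZ2, 1.37 for ANKRD1 and 1.14 for ANKRD2, against a median of 0.306 over all genes tested. At least 97.4% of the genes tested varied less than each of these 4 genes. ACTN2 (0.646) and TCAP (0.464) were intermediate, while ACTN3 (0.321) and MYOT (0.303) lay near the median of all genes. MYOZ1 was the steadiest of the 9 with 0.127, and 4.81% of the genes tested varied less. From the lowest to the highest pig, the level of MYOZ1 differed 1.52 times and that of MYOZ2 10.4 times.

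**Figure D3:**
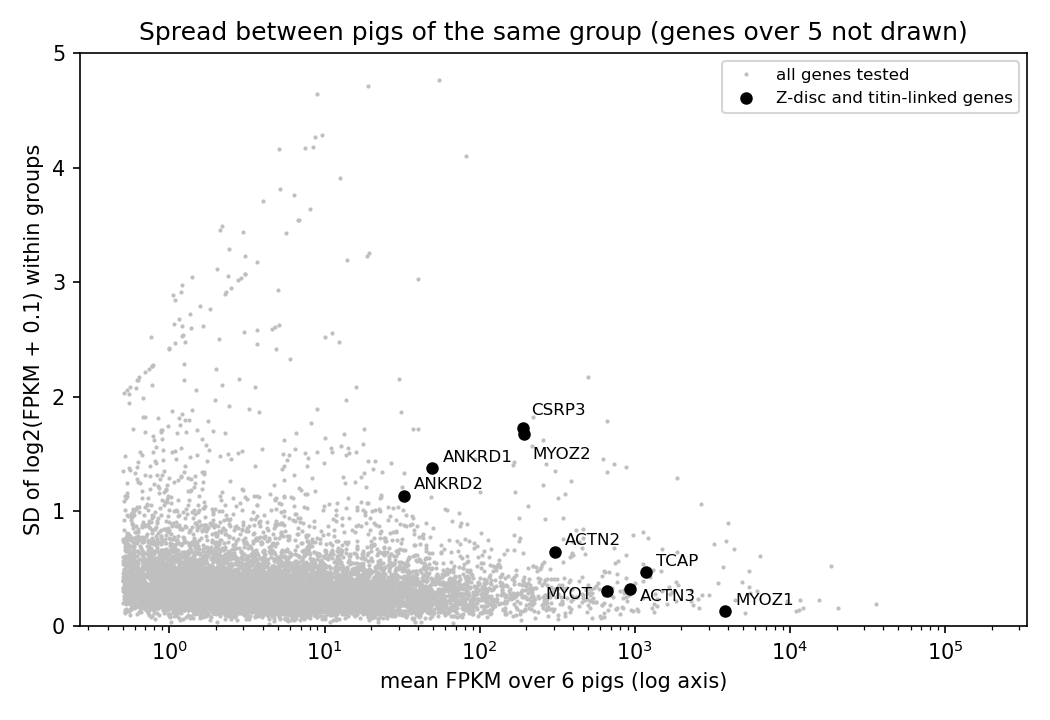
Within-group SD of log2(FPKM + 0.1) against the mean FPKM over 6 pigs (log axis) for all genes tested (grey) and the 9 Z-disc genes (black); 10 genes with an SD over 5 are not drawn. CSRP3 (1.73) and MYOZ2 (1.67) lie far above the bulk of genes of like level, and MYOZ1 (0.127) lies at its lower edge.

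The pigs shared an order in most of these genes, a pattern described after the values were seen. HF02 and LF02 both lay below every other pig in 7 of the 9 genes (77.8%), against 707 of the 11136 genes tested (6.35%). The exceptions were ACTN3 and MYOZ1, the fast forms, in which LF02 was the highest of all pigs. Among the other Z-disc and titin-linked genes tested, described below, HF02 and LF02 were both lowest in 8 of 46 (17.4%). The order was thus not general to Z-disc genes. The markers of slow fibers were lowest in the same pigs. TNNC1, the slow and cardiac troponin C, had 2049.8, 459 and 3916 FPKM in HF01 to HF03, against 1321, 772 and 2719 FPKM in LF01 to LF03, and TNNT1, the slow troponin T, had 949, 228 and 1759 FPKM in HF01 to HF03, against 461, 302 and 1575 FPKM in LF01 to LF03. HF02 and LF02 both lay below every other pig in 8 of the 9 slow markers tested and in 0 of the 11 fast markers.

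Over the whole marker lists, the summed FPKM of the slow markers ranged from 1444 to 12154 in HF and from 2087 to 8523 in LF, lowest in the number 02 pig of each group. The summed fast markers ranged from 30140.2 to 49436 FPKM in HF and from 37871 to 69577 FPKM in LF, highest in those same pigs. All slow and fast markers tested were above 0 in every pig, the fast marker PVALB only at 0.667 FPKM in LF03. RNA of both lists was thus detected in each sample, while fibers of each type were not counted. Between the groups, 9 of 9 slow markers had a positive log2 fold change (median 0.30) and 3 of 11 fast markers did (median -0.27; 5 of 11 with quantile normalization), with 0 called by limma in either list. At an unadjusted p under 0.05 there were 0 slow markers and 1 fast marker, against 24.8% of all genes. That fast marker was PVALB, the calcium buffer parvalbumin of fast fibers. It was higher in HF (log2 fold change 3.06, limma adjusted p = 0.121), opposite in sign to the median of its list. The part of the fiber markers in the levels of the Z-disc genes was not tested.

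**Figure D4:**
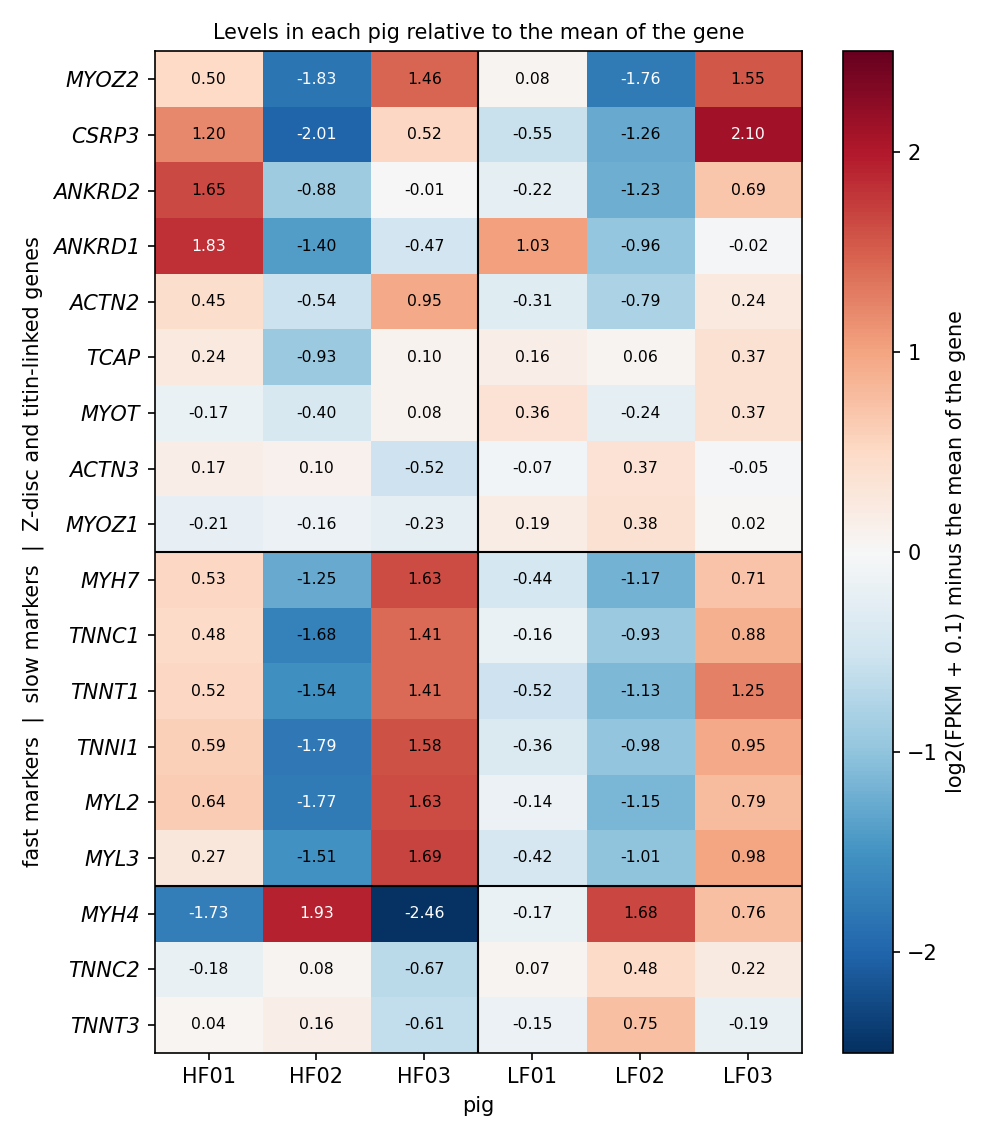
Heat map of log2(FPKM + 0.1), centered on the mean of each gene over the 6 pigs, for the 9 Z-disc genes (top), 6 slow markers (middle) and 3 fast markers (bottom), with HF pigs left of LF pigs. HF02 and LF02 are the lowest of their groups in 7 of the 9 Z-disc genes and in the slow markers drawn, and not in ACTN3, MYOZ1 or the fast markers.

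The genes with the most similar profiles over the 6 pigs differed between the 9 genes. Likeness was measured as the root mean square difference of centered log2 values, so that a smaller value is a closer match, and it was searched among those with a symbol that averaged 5 FPKM or more. For MYOZ2 the nearest were LMOD2 (0.302), TPM3 (0.312) and TNNT1 (0.394), of which LMOD2 lengthens thin filaments and TPM3 and TNNT1 encode slow tropomyosin and troponin T. For CSRP3 they were TPM3 (0.567), MYOM3 (0.605), an M-band protein, and TNNT1 (0.607). For ANKRD2 they were PLN (0.364), the phospholamban that restrains the calcium pump of slow fibers, the small heat shock protein HSPB7 (0.409) and XIRP2 (0.411), an actin-binding repeat protein.

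ANKRD1 lay closest to TNFRSF12A (0.423), the receptor of the cytokine TWEAK, HSPB1 (0.501), a small heat shock protein, and TMEM98 (0.569). For ACTN2 the nearest were PCBP4 (0.159), PRRX1 (0.198) and MYH7B (0.201), the last a myosin of slow type. The steadier genes had closer matches that are mostly not sarcomeric: GUK1 (0.0496), GHITM (0.0501) and SNRNP27 (0.0527) for MYOZ1, PLPP7 (0.0879), FHOD1 (0.0917) and PIGC (0.0952) for ACTN3, HSD17B10 (0.103), WARS (0.118) and MTFP1 (0.121) for TCAP, and TRMT2A (0.0623), CRIPT (0.0647) and ACSL3 (0.0700) for MYOT. Genes that vary little match many others closely, and with 6 libraries these likenesses are descriptions.

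Of 48 further Z-disc and titin-linked genes, 46 were listed under their symbol and tested, with 26 positive and 20 negative log2 fold changes (median 0.11) and 0 called by limma. At an unadjusted p under 0.05, 8 were higher in HF, against 11.0% of all genes, and 4 were lower, against 13.8%. With quantile normalization, 38 were positive and 8 negative, and the split at that level was 13 higher, against 10.8% of all genes in that fit, and 1 lower, against 11.9%. HF and LF values did not overlap for 8 of the 46 genes that were higher in HF (12.8% of all genes) and for 4 that were lower (17.1% of all genes). At an adjusted p under 0.10, 2 of the 46 passed, ACTN1 and ACTN4, against 6.32% of all genes. Without LF02, 4 of the 46 were called, against 2.03% of all genes tested in that fit: ACTN1 (limma adjusted p = 0.0447), ACTN4 (0.0497), TRIM63 (0.0493) and LMOD3 (0.0485).

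Among the structural partners of the 9 genes, FLNC, the muscle filamin that myozenins and myotilin bind, had 149, 99.2 and 90.0 FPKM in HF01 to HF03, against 85.7, 56.8 and 71.7 FPKM in LF01 to LF03. Its groups did not overlap, and the log2 fold change of 0.64 had a limma adjusted p of 0.178. DES, the intermediate filament that ties neighboring Z-discs together, had 2048, 822 and 2226 FPKM in HF01 to HF03, against 2635, 1434 and 2114 FPKM in LF01 to LF03 (log2 fold change -0.36, adjusted p = 0.616). In DES, too, the number 02 pig was the lowest of each group. NEB, the ruler of the thin filament, had a log2 fold change of 0.29 (adjusted p = 0.441), and MYPN, myopalladin, one of 0.00 (95% interval -0.69 to 0.69). TTN was not listed under its symbol. The most abundant of the 4 unnamed models in its reference span, ENSSSCG00000036052, had 826, 917 and 815 FPKM in HF01 to HF03, against 941, 749.7 and 1242 FPKM in LF01 to LF03, with a log2 fold change of -0.17 (adjusted p = 0.695). The other 3 models in the TTN span had log2 fold changes of 0.20, 0.34 and 0.81 (adjusted p 0.301 to 0.846), with overlapping groups.

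Further muscle relatives of the 9 genes include MYOZ3 and ANKRD23, neither of which passed the test. MYOZ3, the remaining myozenin, averaged 217 ± 94.2 FPKM in HF and 223 ± 58.2 FPKM in LF (SD, n = 3 each; limma adjusted p = 0.898), and ANKRD23, the remaining ankyrin repeat partner of titin, averaged 497 ± 160.3 FPKM in HF and 418 ± 78.8 FPKM in LF (adjusted p = 0.696). ANKRD23 thus stood above ANKRD1 and ANKRD2 in level. The LDB3 relatives PDLIM3, PDLIM5 and PDLIM7, which share its PDZ and LIM domains, had log2 fold changes of -0.14, -0.16 and -0.03, all 3 of which turned positive with quantile normalization. XIRP1, an actin-binding repeat protein, had 0.83 (adjusted p = 0.208), NRAP, a thin filament anchor, -0.25 (0.762), and CRYAB, a small heat shock protein that protects titin and desmin, 0.48 (0.560).

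TRIM63 and CAPN3 act in the turnover of sarcomere proteins. TRIM63, the ubiquitin ligase MuRF1 that binds titin at the M-band, had 31.7, 25.0 and 23.2 FPKM in HF01 to HF03, against 57.5, 33.4 and 63.6 FPKM in LF01 to LF03. Each HF pig lay below each LF pig, and the log2 fold change of -0.91 (SE 0.28) had a limma adjusted p of 0.113. CAPN3, the titin-bound calpain of muscle, averaged 171 ± 36.3 FPKM in HF and 241 ± 56.1 FPKM in LF (SD, n = 3 each). The CAPN3 groups overlapped, and limma gave -0.49 on the log2 scale with an adjusted p of 0.268. Chosen after their values were seen, TRIM54, a relative of TRIM63, had a log2 fold change of -0.91 (adjusted p = 0.143), KLHL41, which stabilizes nebulin, one of -0.68 (adjusted p = 0.119), and LMOD3, an actin nucleator of the thin filament, one of -0.92 (adjusted p = 0.112). These 4 genes, TRIM63 included, were those lower at an unadjusted p under 0.05.

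The 8 genes of the list that were higher at an unadjusted p under 0.05 were ACTN1, ACTN4, PALLD, FLNC, FHL2, FHOD3, CSRP1 and CSRP2, of which all but FLNC were named after their values were seen. ACTN1 and ACTN4 are the non-muscle α-actinins. ACTN1 had 3.92, 7.40 and 6.77 FPKM in HF01 to HF03, against 1.39, 3.09 and 1.24 FPKM in LF01 to LF03 (log2 fold change 1.67, limma adjusted p = 0.0880). ACTN4 had 26.0, 30.5 and 29.6 FPKM in HF01 to HF03, against 14.9, 19.0 and 11.106 FPKM in LF01 to LF03 (log2 fold change 0.96, adjusted p = 0.0899). Both lay far below the muscle forms ACTN2 and ACTN3 in every pig. CSRP1 and CSRP2 are the relatives of CSRP3 in smooth muscle and mesenchymal cells, with log2 fold changes of 1.16 (adjusted p = 0.179) and 1.20 (adjusted p = 0.102).

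Markers of other cells of the muscle were read beside those non-muscle forms. Of the fibroblast markers, 7 of 7 had a positive log2 fold change (median 1.09), 5 were higher at an unadjusted p under 0.05, against 11.0% of all genes, and their summed level ranged from 295 to 786 FPKM in HF and from 276 to 332 FPKM in LF. Of the smooth muscle and pericyte markers, 8 of 9 were positive (median 1.25) and 6 were higher at that level, against the same 11.0%. Their sum was 1245 to 2634 FPKM in HF and 1643 to 2740.0 FPKM in LF, most of it from DES. DES, also one of the further Z-disc genes, was the only negative marker of this list (log2 fold change -0.36), so the sum says little about the other markers. All 6 tested adipocyte markers (median 0.88) and 5 endothelial markers (median 0.42) were positive with none at that level. The 4 tested macrophage markers were also positive with none at that level (median 0.23, 2 of them negative with quantile normalization). The adipocyte marker LEP and the macrophage marker AIF1 fell below the filter and were not tested. LEP averaged 0.548 FPKM in HF and 0.155 in LF, and AIF1 averaged 0.310 FPKM in HF and 0.480 in LF. No gene of these lists was called by limma at an adjusted p under 0.05. With quantile normalization, the fibroblast marker LUM was called (adjusted p = 0.0455, against 0.0988% of all genes), and 2 adipocyte markers and 1 endothelial marker were higher at an unadjusted p under 0.05. Their part in the values of ACTN1, ACTN4, CSRP1, CSRP2 and PALLD was not tested.

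The pathways that Z-disc proteins feed into were described from further lists. Of 10 calcineurin and NFAT genes, the pathway that myozenins restrain, 9 had a positive log2 fold change (median 0.28), 0 were called by limma and 2 were higher at an unadjusted p under 0.05, against 11.0% of all genes. The row used for PPP3CC, one of the 10, carries a gene ID that the gene name table calls SLC39A14. The 2 genes were PPP3CA, a catalytic subunit of calcineurin (0.90, adjusted p = 0.106), and RCAN2, an inhibitor of it (1.07, adjusted p = 0.0916), both named after their values were seen. YAP and its relative WWTR1 act through the TEAD transcription factors, which drive ANKRD1 in many cells. Of 6 tested targets, 5 were positive (median 0.55) and 3 were higher at an unadjusted p under 0.05, and of 4 tested factors and coactivators (TEAD1, TEAD4, YAP1 and WWTR1) 3 were positive (median 0.62) and 2 were higher at that level, against 11.0% of all genes. None of these 10 genes was called by limma at an adjusted p under 0.05, and they were split by role after their values were seen. CCN2 had 6.15, 20.5 and 19.9 FPKM in HF01 to HF03, against 3.53, 1.59 and 7.70 FPKM in LF01 to LF03 (adjusted p = 0.1199). CCN1 had 5.21, 8.53 and 10.5 FPKM in HF01 to HF03, against 2.02, 2.13 and 7.03 FPKM in LF01 to LF03 (adjusted p = 0.150). ANKRD1 did not share that order, being highest in HF01, in which CCN1 and CCN2 were the lowest of the HF pigs.

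Markers of regenerating fibers were read as well. Of 7 markers, 6 had a positive log2 fold change (median 0.41) and 0 were called by limma. At an unadjusted limma p under 0.05, 2 were higher in HF, against 11.0% of all genes. These were MYOD1 (1.16, limma adjusted p = 0.102) and CHRNA1 (1.05, limma adjusted p = 0.127), both named after their values were seen. MYH3, the embryonic myosin, had 0.736, 0.784 and 0.868 FPKM in HF01 to HF03, against 0.643, 0.408 and 0.171 FPKM in LF01 to LF03 (limma adjusted p = 0.221), and MYH8, the perinatal myosin, had 4.19, 55.1 and 7.37 FPKM in HF01 to HF03, against 15.4, 4.43 and 19.1 FPKM in LF01 to LF03. MYH8 (log2 fold change 0.13, limma adjusted p = 0.946) was highest in HF02, a pig with low CSRP3, ANKRD1 and ANKRD2. The cardiac peptide genes NPPA and NPPB were listed at 0 in all 6 pigs. None of the 9 Z-disc genes was listed at 0 in any pig. ACTA1, the skeletal muscle actin on which the Z-disc is built, was listed at 0 in HF01 and HF03. In the other pigs it had 10272 to 15140 FPKM. In LF02, 4 mitochondrial genes (COX1, COX3, ATP6 and ATP8) were at 0, and each had 30386 FPKM or more in every other pig. The cause of these zeros was not tested, and they need not reflect levels in the muscle.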

How the data were processed

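RNA of the longissimus dorsi of 3 HF and 3 LF pigs was sequenced by the authors in 1 library per pig. After read cleaning with fastp and alignment to Sscrofa11.1 with HISAT2, the authors computed the deposited FPKM values with cufflinks, which are scaled to transcript length and mapped fragments and are used here as deposited. Counts per gene and the read totals per library that the study gives were not used here, so the number of fragments behind each value is unknown. Comparison columns of the same table hold the authors' DESeq2 fold changes and p-values made from HTSeq counts and were not used. Pigs were grouped by their labels.

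From the FPKM values, HF was compared with LF by limma (version 3.58.1, R 4.3.3), with lmFit and eBayes with a mean trend, two-sided, on log2(FPKM + 0.1) for genes averaging 0.5 FPKM or more. The p-values were adjusted by Benjamini-Hochberg over all genes tested, and a fold change on this scale understates that of low genes. Symbols missing from the table were filled by gene ID from a gene name table for the context lists. The fit was tested on simulated data. The members and lists were chosen with earlier results of these data known. Named were all 9 listed members, 15 preset Z-disc genes (TTN, NEB, FLNC, DES, MYPN, MYOZ3, ANKRD23, PDLIM3, PDLIM5, PDLIM7, CAPN3, TRIM63, NRAP, XIRP1 and CRYAB), any called gene of that list, preset fiber, regeneration and YAP markers, and the 3 nearest genes of each member. As alternatives, the pseudocount was set to 1 or to 0.01, the filter was dropped or raised to 5 FPKM, and the fit was repeated with median-of-ratios scaling, quantile normalization, no trend, a robust fit, a replicate block, each pig left out, and an adjusted p under 0.10. A filter for values above 0 in every pig and the block with median-of-ratios scaling were added after the values were seen. Sequences of the members were not analysed here. The row used for MYH7 in the slow marker list carries the gene ID that the name table calls MYH6.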

Additional observations from a re-analysis of the deposited data

How the results depend on the processing

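The count of 9 Z-disc genes called was 0 under all 18 alternatives, and ACTN2 (0.24 to 0.98), MYOZ1 (-0.48 to -0.30) and TCAP (-0.61 to -0.031) kept their sign. Of the further Z-disc genes, 2 were called at an adjusted p under 0.10, against 6.32% of all genes, and 0 to 4 were called with a pig left out. Quantile normalization turned the log2 fold change of ACTN3 to 0.13, MYOT to 0.066, ANKRD1 to 0.19, MYOZ3 to 0.24, PDLIM3 to 0.20, PDLIM5 to 0.16, PDLIM7 to 0.27 and NRAP to 0.031. Median-of-ratios scaling, alone or with the replicate block, turned MYPN to -0.034. With each pig left out, log2 fold changes ran from -0.29 to 0.053 for ACTN3, -0.77 to 1.03 for MYOZ2, -0.87 to 0.80 for CSRP3, -0.95 to 0.67 for ANKRD1, -0.19 to 1.07 for ANKRD2, -0.62 to 0.10 for DES, -0.024 to 0.78 for CRYAB, -0.31 to 0.25 for MYPN, -0.41 to 0.21 for MYOZ3, -0.46 to 0.020 for PDLIM3, -0.40 to 0.10 for PDLIM5, -0.14 to 0.13 for PDLIM7 and -0.57 to 0.22 for NRAP. The cause of these changes was not tested. Over 25 genes and models there were 450 comparisons, of which 414 kept sign and side of the threshold, 33 changed sign and 3 crossed to the called side. The pairs with the same replicate number correlated at -0.04, 0.09 and 0.02, and those with different numbers at -0.09 to 0.08. Deviations from a mean of 3 pigs are tied to each other, so these values cannot tell whether the numbers pair the pigs. With the replicate block, 0 of the 9 genes were called, and ACTN2 had an unadjusted p of 0.0365 (limma adjusted p = 0.190). Over all genes, 4 were called higher and 4 lower. Without LF02 these were 102 and 124, and with the block 6 and 8. The limma p-values rest on the spread between 3 pigs of a group, drawn toward the trend over all genes tested. For MYOZ1 this made the SE larger than its own spread alone would give. The number of fragments behind each FPKM value is unknown.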
